A study of Mus musculus with 8 samples.

Results

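The regions described are 2166 of 168842 stretches of mouse chromatin (1.28%) that were more accessible in wild-type FLK1 single-positive cells than in double-positive cells and less accessible again where Etv2 was induced. They were chosen by their own values. With L as the log2 ratio of 2 group means after 5 normalized reads were added to each, a member had L of at least 1 for WT SP over WT DP and of at most -1 for OE SP over WT SP. Both differences therefore describe the choice and support nothing.

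All cells came from day 4 embryoid bodies, the floating clumps in which embryonic stem cells are left to differentiate. OE SP is FLK1+ PDGFRalpha- cells of the iETV2 line, which received doxycycline at 2 µg/ml at day 2.5 to switch on Etv2. WT SP and WT DP are the FLK1+ PDGFRalpha- and the FLK1+ PDGFRalpha+ cells of the wild-type A2lox.Cre line, and KO DP is FLK1+ PDGFRalpha+ cells of an Etv2 knockout line. Each of the 4 groups has 2 libraries, made from 50000 sorted live cells each with the Omni-ATAC procedure, which tags accessible DNA with Tn5 transposase. Doxycycline went with the iETV2 line and the knockout is a line of its own, so Etv2, doxycycline and the line cannot be told apart. Whether both libraries of a group are from separate cultures is not stated in the labels, so p-values cover the spread between libraries of a group, which may be technical. For each region that spread was estimated jointly over the 4 groups. A gap between the OE SP libraries therefore also enters the p-values of KO DP against WT DP.

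FLK1, the VEGF receptor encoded by Kdr, marks mesoderm that can give vessels, blood, heart and smooth muscle, and PDGFRalpha is kept on cardiac and paraxial mesoderm and lost from cells that go towards blood and vessels. Etv2 is an ETS transcription factor that mouse embryos need for that step. BMP signals pattern the same mesoderm: the ligands act through SMAD proteins, switch on Id and Msx genes, and induce their own inhibitors Smad6 and Bambi. Distal accessible regions often act as enhancers, whose use differs between cell states more than that of promoters.

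Few members lay at promoters. Of 14763 RefSeq promoter windows touched by any region, each reaching 250 bases before to 50 bases after a transcript start, 37 were touched by a member, and 13 of these belong to protein-coding genes. Shown here are 5 of the 7 protein-coding windows that had at least 150 bases inside a member and a GATA hexamer (AGATAA) or a TEAD hexamer (GGAATG) on either strand, because the shares of windows with these hexamers are compared at the end. Capitals mark every match to either hexamer or its reverse complement. The sequences run 5′ to 3′ on the gene's strand and are from RefSeq, assembly GRCm38.p6.
Radil: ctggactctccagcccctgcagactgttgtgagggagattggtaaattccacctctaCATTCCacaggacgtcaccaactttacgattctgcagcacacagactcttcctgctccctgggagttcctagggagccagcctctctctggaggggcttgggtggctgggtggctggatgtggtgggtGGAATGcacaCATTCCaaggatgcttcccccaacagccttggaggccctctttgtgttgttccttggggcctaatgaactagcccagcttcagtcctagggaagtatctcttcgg
Ccl17: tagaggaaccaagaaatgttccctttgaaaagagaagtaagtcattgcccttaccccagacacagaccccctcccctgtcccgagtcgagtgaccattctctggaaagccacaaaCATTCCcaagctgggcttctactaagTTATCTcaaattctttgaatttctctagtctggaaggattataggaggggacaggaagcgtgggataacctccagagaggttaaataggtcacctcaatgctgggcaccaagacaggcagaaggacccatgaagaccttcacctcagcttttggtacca
Il9r: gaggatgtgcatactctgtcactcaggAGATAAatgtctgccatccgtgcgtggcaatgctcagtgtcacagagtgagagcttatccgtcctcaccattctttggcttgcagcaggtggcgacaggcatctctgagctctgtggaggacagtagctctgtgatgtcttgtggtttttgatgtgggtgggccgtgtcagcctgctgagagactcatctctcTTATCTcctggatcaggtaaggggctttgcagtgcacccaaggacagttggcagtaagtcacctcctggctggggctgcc
Mylk3: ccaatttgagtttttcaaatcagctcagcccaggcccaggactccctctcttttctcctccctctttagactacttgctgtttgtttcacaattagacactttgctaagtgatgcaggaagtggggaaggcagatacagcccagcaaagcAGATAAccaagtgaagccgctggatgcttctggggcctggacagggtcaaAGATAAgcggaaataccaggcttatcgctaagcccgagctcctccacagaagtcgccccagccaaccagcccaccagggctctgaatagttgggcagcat
Sycn: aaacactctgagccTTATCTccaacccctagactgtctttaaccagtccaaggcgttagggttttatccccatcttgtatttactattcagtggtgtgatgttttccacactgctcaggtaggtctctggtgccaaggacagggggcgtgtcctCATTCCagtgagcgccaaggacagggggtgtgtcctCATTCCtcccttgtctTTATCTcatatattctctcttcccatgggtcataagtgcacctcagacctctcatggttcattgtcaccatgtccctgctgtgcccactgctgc
The windows are chr5:142544978-142545277 on the minus strand for Radil, chr8:94810203-94810502 on the plus strand for Ccl17, chr11:32200230-32200529 on the minus strand for Il9r, chr8:85380992-85381291 on the minus strand for Mylk3 and chr7:28540635-28540934 on the plus strand for Sycn.

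Reads in regions ran between 12477601 and 18853733 per library, and the median region held 27.0 to 42.0 reads, so counting error alone is large for a single region. A region in Etv2 at chr7:30634628-30635028 measured 425 and 645 normalized reads in OE SP against 475 and 493 in WT SP, and 0.84 and 0 in KO DP against 563 and 611 in WT DP. None of the 3 regions of Etv2, the 10 of Kdr or the 8 of Pdgfra was a member. The OE SP libraries stood apart from each other. Replicate 1 minus replicate 2 of OE SP had a median of -0.84 (log2) over the members, against -0.20 over all regions, and 888 members (41.0%) were lower in replicate 1 by at least 1, against 7.35% of all regions. The members' median of the same difference was -0.06 in WT SP, -0.06 in KO DP and -0.02 in WT DP. Results that use OE SP are therefore also given with each of its libraries left out.

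The members were moderately open regions whose highest level was in WT SP. Their median level was 13.1 and 27.6 normalized reads in the OE SP libraries against 77.4 and 81.3 in the WT SP libraries, and 42.8 and 45.2 in KO DP against 30.1 and 30.5 in WT DP. Over all regions the medians lay between 29.9 and 36.7 in every library, so the members were above the typical region in WT SP and KO DP and below it in OE SP and WT DP. Between the 25th and the 75th percentile the members ran from 46.8 to 139 normalized reads in WT SP replicate 1 and from 49.6 to 145 in replicate 2. Both WT SP libraries exceeded both OE SP and both WT DP libraries in 2165 of the 2166 members, against 18.1% of all regions, which the choice nearly fixes.

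**Figure D1:**
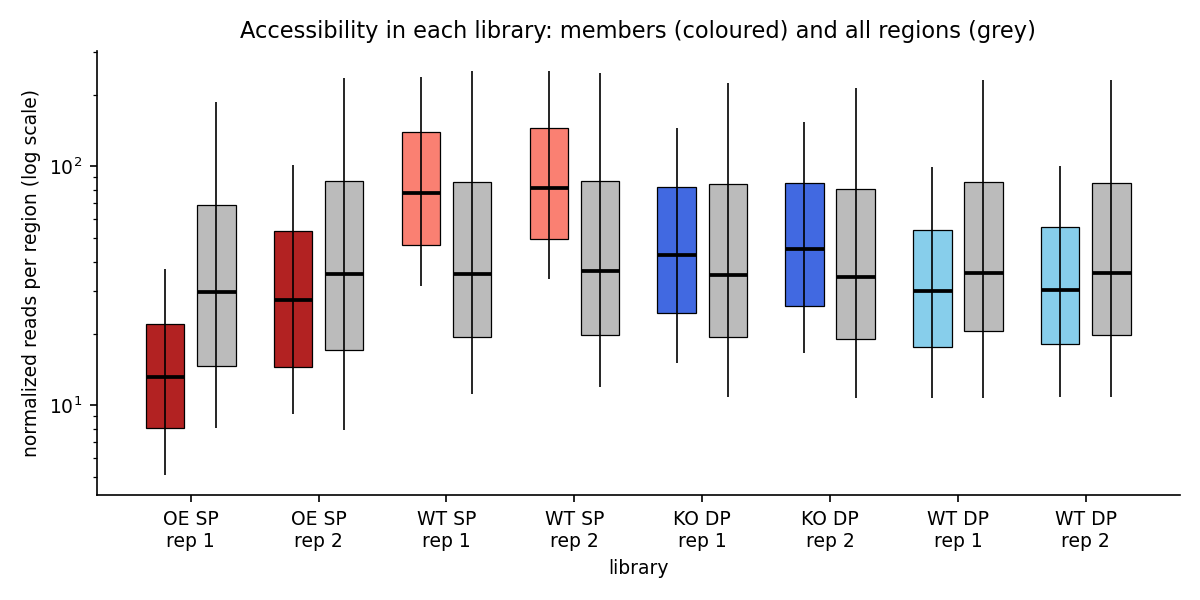
Normalized reads per region (log axis) in each of the 8 libraries, for the 2166 members (coloured) and all 168842 regions (grey). The line is the median, the box the 25th to 75th percentile and the whisker the 10th to 90th percentile. The members' medians are 13.1 and 27.6 in OE SP against 77.4 and 81.3 in WT SP, and 42.8 and 45.2 in KO DP against 30.1 and 30.5 in WT DP.

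Between the wild-type populations, 7676 regions (4.55%) met the first criterion, and the members were 28.2% of them. A further 2507 (32.7%) had L of at least 1 for OE SP over WT SP as well, so that they were highest in OE SP, and 3003 (39.1%) lay between. The members' L for WT SP over WT DP had a median of 1.20 and a range of 1.00 to 2.37. For OE SP over WT SP the median was -1.62 and the range -3.56 to -1. With median-of-ratios factors in place of the deposited scaling the median of all regions for OE SP over WT SP was 0 in limma, against -0.22 as deposited, and that of the members -1.51, against -1.72. The number of regions that meet the rule was then 1347, and 975 with scaling on the 10000 highest regions. As calls of limma on log2(value + 5), with 1 fit over all regions and a Benjamini-Hochberg adjusted p below 0.05, 1702 of the 2164 members tested (78.7%) were higher in WT SP than in WT DP, against 6.2% of all regions, and 2163 were lower in OE SP than in WT SP, against 31.9%. These counts come from the libraries that chose the members, and nothing is read from them. With 1 library of the compared groups left out, the first count was 324 and 331 without WT SP replicate 1 and 2, and 388 and 424 without WT DP replicate 1 and 2, while 1.06%, 1.21%, 1.38% and 1.33% of all regions were called higher in these 4 fits. Scaling moved the split of calls over all regions: for WT SP against WT DP, 4.3% were called higher and 12.4% lower with scaling on the 10000 highest regions, and 6.2% and 8.12% as deposited. With median-of-ratios factors 23.3% were higher and 25.4% lower in OE SP than in WT SP, against 16.6% and 31.9% as deposited.

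Just inside the first threshold, a region near Dnmt3a, a DNA methyltransferase, had L of 1.0002 for WT SP over WT DP, and a region near Ccn1, a matrix protein, lay just outside at 0.9999. Normalized reads near Dnmt3a were 11.7 and 61.8 in OE SP against 243 and 276 in WT SP, with 135 and 119 in WT DP. Near Ccn1 they were 6.57 and 10.5 in OE SP against 31.6 and 32.7 in WT SP, with 14.6 and 12.6 in WT DP. At the second threshold a region near Dpys, an enzyme of pyrimidine breakdown, had L of -1.0001 for OE SP over WT SP and was kept. A region near Rps6ka2, a ribosomal S6 kinase, had -0.9997 and was not.

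To see how far the same regions come back in other libraries, the rule was applied to 1 library of each group and read in the other. The 3230 regions chosen with the replicate 1 libraries had, in the replicate 2 libraries, a median of 1.05 for WT SP over WT DP and of -1.02 for OE SP over WT SP. Both criteria were met again by 983 of them (30.4%), against 1.25% of all regions. Chosen with the replicate 2 libraries, 2113 regions had medians of 0.99 and -1.99 in the replicate 1 libraries, and the same 983 (46.5%) met both criteria, against 1.91% of all regions. All 983 were members, which the rule fixes: a region that meets it in each replicate alone also meets it on the means. The direction of both differences was thus kept in most regions, and the size of the OE SP difference depended on which OE SP library was read.

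The choice limits, but does not fully fix, where a member in OE SP lies relative to WT DP. The members' L for WT SP over WT DP had 25th and 75th percentiles of 1.09 and 1.37. With L of at most -1 for OE SP over WT SP, levels well above WT DP were thus nearly barred. For OE SP over WT DP the members' L had a median of -0.38, against -0.10 over all regions. It was within 0.5 of 0 in 58.9% of members, under -0.5 in 40.1% and over 0.5 in 1.02%. In 904 members (41.7%) both OE SP libraries lay below both WT DP libraries, against 43.0% of all regions, a share near the background. In 48 (2.22%) both lay above, against 32.3% of all regions. By limma 598 members (27.6%) were called lower in OE SP than in WT DP, against 33.2% of all regions, and 5 were called higher, against 21.3%. Both groups took part in the choice, which the regions at large did not pass. These counts, and their distance from the shares of all regions, are therefore a description. The OE SP libraries gave different answers on this point. Replicate 1 lay below both WT DP libraries in 1912 members (88.3%), against 54.7% of all regions. Replicate 2 lay below both in 959 (44.3%), against 47.4%, and above both in 778 (35.9%), against 44.5%. By limma without OE SP replicate 1, 447 members (20.7%) were called lower, against 33.2% of all regions, and 281 (13.0%) higher, against 28.7%. Without OE SP replicate 2, 1403 (64.8%) were called lower, against 38.4%, and 7 (0.323%) higher, against 20.5%. The members' share of lower calls was thus below that of all regions with both libraries or replicate 2 alone, and above it with replicate 1 alone. Without WT DP replicate 1, 338 (15.6%) were lower, against 26.4%, and 3 higher, against 16.8%. Without WT DP replicate 2, 336 (15.5%) were lower, against 26.6%, and 4 higher, against 16.5%. Against the mean of WT SP, 2133 members were at -1 or less in OE SP replicate 1 alone and 1568 in replicate 2 alone. Both libraries reached it in 1535 members (70.9%), only replicate 1 in 598 (27.6%) and only replicate 2 in 33 (1.52%), against 14.9%, 9.06% and 4.19% of all regions.

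**Figure D2:**
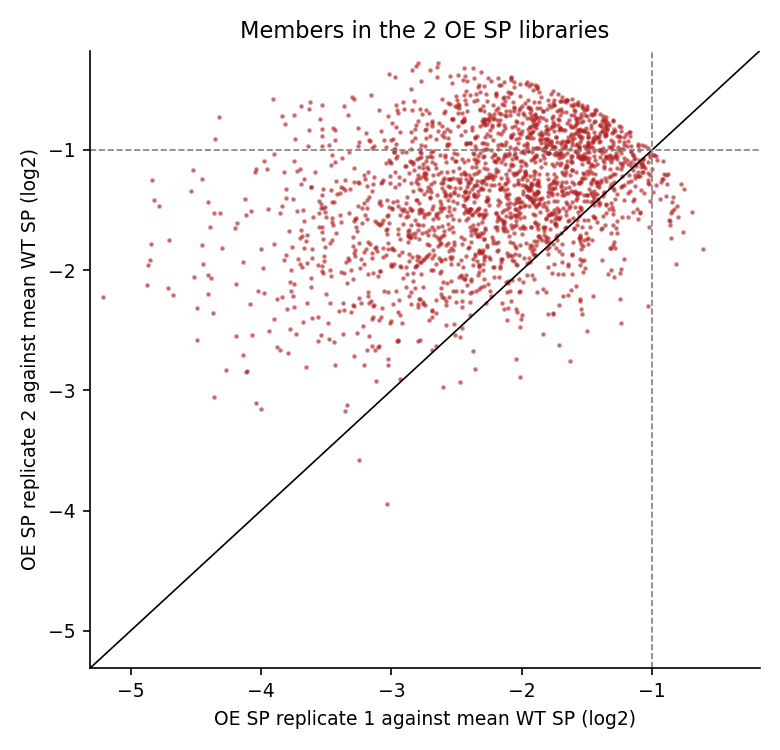
Each point is 1 of the 2166 members, with OE SP replicate 1 (x axis) and OE SP replicate 2 (y axis) each as a log2 ratio to the mean of WT SP, both after adding 5. Dashed lines mark -1 and the diagonal marks equal values. Most points lie above the diagonal, and 598 members are past the line in replicate 1 only.

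The region at chr13:12133498-12133898, 26.6 kb outside Ryr2, the calcium release channel of heart muscle, was the lowest in OE SP relative to WT DP. It measured 8.75 and 28.9 normalized reads in OE SP against 292 and 262 in WT SP, and 163 and 165 in KO DP against 120.4 and 124 in WT DP. Both OE SP libraries lay below every library of the other groups. A region in Cox17, a copper chaperone of the respiratory chain, had 8.02 and 26.3 normalized reads in OE SP against 223 and 215 in WT SP, and 159.5 and 171 in KO DP against 119 and 89.8 in WT DP, in the same order. At the other end, a region at chrX:106769346-106769746, 58.8 kb from Gm5127, had 67.8 and 173 normalized reads in OE SP against 282 and 269.6 in WT SP, and 99.1 and 97.5 in KO DP against 47.6 and 51.2 in WT DP. In Reps2, an endocytosis adaptor, the values were 21.9 and 34.2 in OE SP against 65.1 and 60.5 in WT SP, and 18.5 and 26.1 in KO DP against 12.6 and 8.98 in WT DP. In these last regions both OE SP libraries stayed above both WT DP libraries while below both WT SP libraries.

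KO DP took no part in the choice, but WT DP did, and members were taken for low WT DP values. The members' level in KO DP lay between those of WT SP and WT DP, with a median over group means of 43.6 normalized reads in KO DP, against 79.4 in WT SP and 30.4 in WT DP. By limma the change in KO DP against WT DP had a median of 0.46 (log2), against -0.07 over all regions, and was above 0 in 86.0% of members, against 42.8% of all. Called higher in KO DP were 150 members (6.93%), against 1.72% of all regions, and called lower were 14 (0.647%), against 2.21%. Regions highest in OE SP, which had been chosen for low WT DP values in the same way, had a median change of 0.09, with 36 (1.44%) called higher and 25 (1.00%) called lower. The number of calls rested on all 4 libraries. Without KO DP replicate 1 and 2, 10 (0.462%) and 7 (0.323%) members were called higher, close to the 0.312% and 0.282% of all regions. Without WT DP replicate 1 and 2 they were 15 (0.693%) and 20 (0.924%), against 0.387% and 0.386%. The 14 lower calls became 1 in each of these 4 fits. Of the 150 members called higher, 7 were called in all 4 fits and 126 in none. The most calls came with only the 2 compared groups fitted, 930 higher (43.0%), against 8.89% of all regions, and 53 lower, against 13.1%. The OE SP libraries, whose spread is part of the main fit, took no part in that fit. The median change was 0.45 to 0.60 in all alternatives. With scaling on the 10000 highest regions 310 members (14.3%) were called higher, against 3.12% of all regions, of which 2.64% were called lower.

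To part the choice from the comparison by library, members were chosen with 1 WT DP library and KO DP was set against the other. Whether these libraries are from separate cultures is not stated, so a low level that both share would not be removed. Chosen with WT DP replicate 1, 2483 regions had a median change of 0.33 in KO DP against WT DP replicate 2, and 74.4% were above 0, against 43.3% of all regions. With the WT DP libraries exchanged, 2325 regions had a median of 0.36, and 77.8% were above 0, against 42.6%. The regions highest in OE SP, treated likewise, had medians of -0.01 and -0.04, and are again not matched to the members in level. Calls were few in these fits, with 13 (0.524%) and 20 (0.861%) members called higher, against 0.387% and 0.386% of all regions, and 2 and 2 called lower. With both WT DP libraries, the median change was 0.44 for the regions chosen without OE SP replicate 1 and 0.44 for those chosen without OE SP replicate 2.

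**Figure D3:**
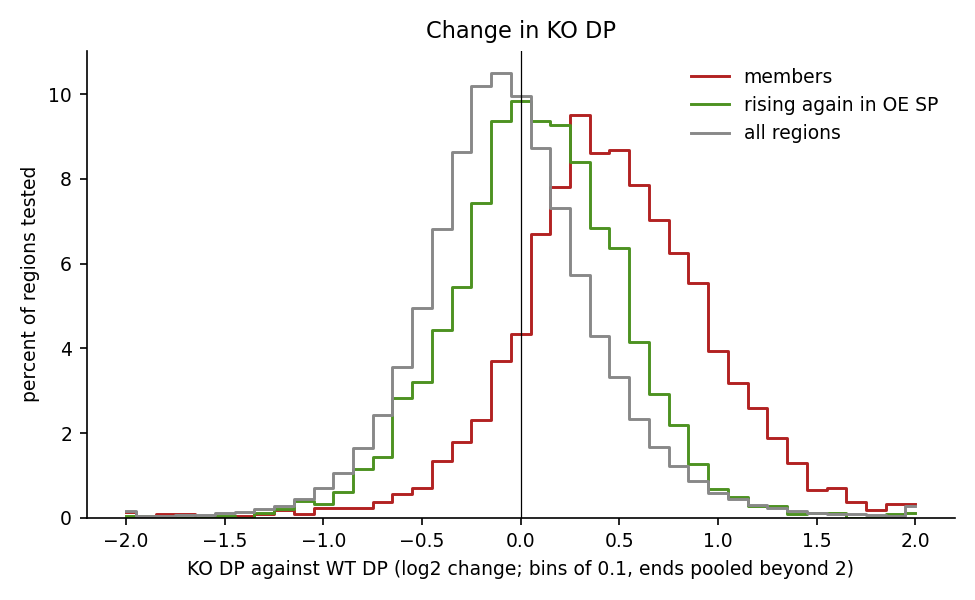
Share of regions (y axis, percent) by their log2 change in KO DP against WT DP (x axis, bins of 0.1), for the 2164 members tested, the 2499 regions tested that are highest in OE SP, and all 167573 regions tested. The members' median is 0.46, against 0.09 and -0.07 for the other sets. All 3 curves use the WT DP libraries that took part in the choice. The regions highest in OE SP have a lower median level in WT DP, 9.76 normalized reads against 30.4 for the members.

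Among the 5 members with the lowest adjusted p for a rise in KO DP, a region at chr8:35943728-35944128, 117 kb from Cldn23, which encodes a tight junction protein, measured 223 and 269 normalized reads in KO DP, against 54.4 and 44.9 in WT DP (log2 change 2.20, SE 0.20, limma adjusted p = 9.67e-05). Here KO DP also exceeded WT SP, with 125 and 153. A region in Ube2e2, a ubiquitin-conjugating enzyme, had 105 and 114 in KO DP, against 20.4 and 12.6 in WT DP (2.44, SE 0.26, limma adjusted p = 0.000295). Its WT SP values were 36.6 and 49.6. In Radil, an effector of the small GTPase Rap1, the promoter region shown above had 144 and 140.2 in KO DP, against 34.9 and 32.3 in WT DP (1.93, SE 0.21, limma adjusted p = 0.000351), with 56.9 and 84.1 in OE SP and 159.8 and 179 in WT SP. Regions in Snx30, a sorting nexin, and Kirrel, an adhesion protein, rose by 1.95 and 2.28 (limma adjusted p = 0.000429 and 0.000497). These 5 were picked by adjusted p, and WT DP took part in the choice of members. Neither their p-values nor the fits with 1 library left out test the rise apart from that choice. All 5 calls held with any 1 KO DP or WT DP library left out. Of the members near genes of the cell type and pathway lists described further on, 1 rose: a region 76.8 kb from Fgf10, a growth factor of the heart fields and lung, with 45.3 and 46.4 in KO DP against 20.4 and 18.9 in WT DP (1.05, SE 0.24, limma adjusted p = 0.0347). That call was lost when any 1 KO DP or WT DP library was left out, with limma adjusted p = 0.187 to 0.257.

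Falls in KO DP were rarer. A region 33.4 kb from Taf1b, a subunit of an RNA polymerase I factor, measured 4.20 and 3.56 normalized reads in KO DP, against 34.9 and 33.2 in WT DP (log2 change -2.14, SE 0.25, limma adjusted p = 0.000699). Regions by Slamf1 and in Cd244a, receptors of blood cells that neighbour each other on chromosome 1, fell by 1.95 and 2.51 (limma adjusted p = 0.00611 and 0.00631), with 19.3 and 19.0 in KO DP against 90.3 and 86.2 in WT DP by Slamf1. In Cd244a the group means were 12.1 in KO DP and 90.9 in WT DP. Within 2 Mb of the Slamf1 member, 48 of 418 regions tested (11.5%) were called lower in KO DP, members or not. That is above the 2.21% of all regions, and what sets this stretch apart was not tested. The calls by Slamf1 and in Cd244a were lost when any 1 KO DP or WT DP library was left out, with limma adjusted p = 0.0632 to 0.163.

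By position, members were distal. Only 76 (3.51%) lay within 1 kb of an end of a protein-coding gene, against 11.5% of all regions, while 1029 (47.5%) lay deeper inside a gene span, 787 (36.3%) outside genes but within 100 kb, and 274 (12.7%) farther away. Regions meeting the first criterion had a nearly equal share at gene ends, 3.53%, so this feature went with being higher in WT SP than in WT DP. The median distance to the nearest RefSeq transcript start was 23.9 kb, against 20.9 kb for all regions. Members stood next to each other more often than regions do at large: for 208 (9.60%) the next region on either side was also a member, against 2.53% of all regions. Another member lay within 100 kb of 814 members (37.6%), a share for which no background was counted. Neighbouring members are not independent points.

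Promoters among the members belonged to genes of varied roles. The region over the start of Mylk3, a kinase of cardiac myosin light chain, was the most open of those shown, with 115 and 493 normalized reads in OE SP against 644 and 644 in WT SP, and 463 and 422 in KO DP against 277 and 313 in WT DP. OE SP replicate 1 lay below both WT DP libraries there and replicate 2 above them. A member covered a RefSeq start of Runx3, a Runt factor of blood and neurons, and measured 11.7 and 63.1 in OE SP against 182 and 186 in WT SP, and 105 and 106 in KO DP against 87.4 and 71.9 in WT DP. At Il9r, a cytokine receptor of blood cells, the values were 43.0 and 147 in OE SP against 241 and 220.1 in WT SP, and 88.2 and 84.4 in KO DP against 107 and 82.6 in WT DP. OE SP replicate 2 lay above both WT DP libraries there too, whereas at Runx3 both OE SP libraries lay below both. Ccl17, a chemokine, had 15.3 and 26.3 in OE SP against 67.2 and 84.3 in WT SP, and 40.3 and 42.8 in KO DP against 14.6 and 26.9 in WT DP. At Sycn, a protein of secretory granules in the pancreas, all 8 values were under 40, with 38.7 and 31.7 in WT SP.

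Taking the nearest protein-coding gene within 100 kb, 1892 members fell to 1532 genes. Most of these, 1260, had 1 member, 211 had 2, 43 had 3 and 18 had 4 or more. Sgms1, a sphingomyelin synthase, had 6 of its 50 regions among the members, and Smad6 (5 of 52), Bambi (5 of 21), Ahnak (5 of 22), Etl4 (5 of 82), Ksr1 (5 of 43), Macrod2 (5 of 73) and Zfp462 (5 of 32) followed. Long genes hold more regions, so the counts are not rates. Near Tbc1d7, a subunit of the TSC complex, 4 of only 8 regions were members.

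The BMP genes near which members lay are given by role, and most genes of the pathway had none. No member had Bmp4, Bmp5, Bmp6, Bmp7, Smad1, Smad7, Smad9, Id1, Id2, Msx1, Grem1, Chrd or Nog as its nearest gene within 100 kb. In the list of BMP, WNT and Notch genes, 6 of 38 had members. Bambi, Msx2 and the members far from Bmp2 were picked after their values were seen, and over the whole list of BMP, WNT and Notch genes 10 of 727 regions (1.38%) were members, near the 1.28% of all regions. For Bmp2, the ligand, 7 members had it as their nearest gene, of which 1 lay within 100 kb, at chr2:133570761-133571161 and 7.87 kb away. That region had 19.0 and 126 normalized reads in OE SP against 382 and 345 in WT SP, and 251 and 266 in KO DP against 173 and 169 in WT DP. Both OE SP libraries were below both WT DP libraries. The other 6 lay 115 to 465 kb from the gene, and the one at chr2:133327599-133327999 had 43.0 and 152 in OE SP against 200.5 and 223 in WT SP, and 238 and 259 in KO DP against 75.7 and 71.0 in WT DP. There the KO DP values were above those of WT SP, and the region was called higher in KO DP than in WT DP (log2 change 1.69, SE 0.39, limma adjusted p = 0.0325), a call that was lost when any 1 library of these groups was left out, with limma adjusted p = 0.2 to 0.298.

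Smad6, an inhibitory SMAD, had 5 members outside its span, 9.91 to 56.3 kb away. The most open, at chr9:63919331-63919731, measured 45.2 and 244 in OE SP against 525 and 508 in WT SP, and 306 and 311 in KO DP against 265 and 225 in WT DP. The strongest by its smaller difference, at chr9:64067798-64068198, had 12.4 and 51.2 in OE SP against 192 and 183 in WT SP, and 51.2 and 83.2 in KO DP against 58.2 and 82.6 in WT DP. In all 5 the highest library was from WT SP and OE SP replicate 1 was the lowest of the 8. Bambi, a decoy receptor for BMP and activin ligands, had members 28.0 to 84.9 kb away, and the strongest had 4.38 and 6.57 in OE SP against 42.7 and 45.6 in WT SP, and 29.4 and 29.7 in KO DP against 11.6 and 17.1 in WT DP. The member 79.7 kb from Bambi was low, with 3.65 and 3.94 in OE SP against 24.4 and 30.7 in WT SP, and 28.5 and 23.8 in KO DP against 9.71 and 8.08 in WT DP, and was called higher in KO DP (log2 change 1.16, SE 0.26, limma adjusted p = 0.0306, and 0.159 to 0.237 with 1 library left out). The KO DP values overlapped those of WT SP. Near Id3, a BMP target that blocks bHLH factors, a member 28.6 kb away had 17.5 and 68.3 in OE SP against 217 and 209 in WT SP, and 200.7 and 256 in KO DP against 86.4 and 82.6 in WT DP. Msx2, another BMP target and a homeobox factor, had 5.11 and 42.0 in OE SP against 71.2 and 80.3 in WT SP, and 79.8 and 67.7 in KO DP against 18.4 and 40.4 in WT DP. KO DP reached the WT SP level at Id3 and Msx2 and not at Smad6, and neither the Id3 member (limma adjusted p = 0.0758) nor that Smad6 member (0.944) was called in KO DP.

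Of the 34 genes in the cardiac list, 3 had members, led by Ryr2, with 4 members of 38 regions. Inside the gene, the member at chr13:12030518-12030918 had 16.8 and 177 normalized reads in OE SP against 623 and 619 in WT SP, and 339 and 335 in KO DP against 263 and 248 in WT DP. A second, at chr13:12036810-12037210, had 6.57 and 86.7 in OE SP against 419 and 425 in WT SP, and 280.4 and 330.4 in KO DP against 171 and 179.6 in WT DP. OE SP was below WT DP in both libraries at each, by far more in replicate 1. Tbx3, a T-box factor of the heart's conduction system, had 2 members 88.9 and 89.8 kb away. The more open had 22.6 and 77.5 in OE SP against 108 and 125 in WT SP, and 102 and 108 in KO DP against 45.6 and 62.9 in WT DP. At the other, KO DP was near WT DP, with 24.3 and 15.45 against 13.6 and 24.3. Neither was called in KO DP (limma adjusted p = 0.215 and 0.961).

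Other genes with at least 4 members have varied roles. Myh9, nonmuscle myosin heavy chain, had 4, of which one inside the gene at chr15:77820709-77821109 had 81.0 and 197 in OE SP against 313 and 311 in WT SP, and 137 and 169 in KO DP against 86.4 and 120.4 in WT DP. Daam1, a formin of planar polarity signalling, had 4, with 51.1 and 121 in OE SP against 194 and 220.1 in WT SP, and 84.8 and 107 in KO DP against 55.3 and 62.9 in WT DP at the most open. Ksr1, a scaffold of the RAS to ERK pathway, had 5 inside the gene, and the one at chr11:79092392-79092792 measured 15.3 and 26.3 in OE SP against 177 and 178 in WT SP, and 110.0 and 98.6 in KO DP against 64.1 and 75.4 in WT DP. Macrod2, an ADP-ribose hydrolase, had 5, and 2 of them were called higher in KO DP. One of these, at chr2:140748647-140749047, had 10.2 and 11.8 in OE SP against 40.7 and 51.5 in WT SP, and 22.7 and 41.6 in KO DP against 9.71 and 9.88 in WT DP (log2 change 1.28 in KO DP, SE 0.29, limma adjusted p = 0.0298, and 0.0537 to 0.315 with 1 library left out).

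**Figure D4:**
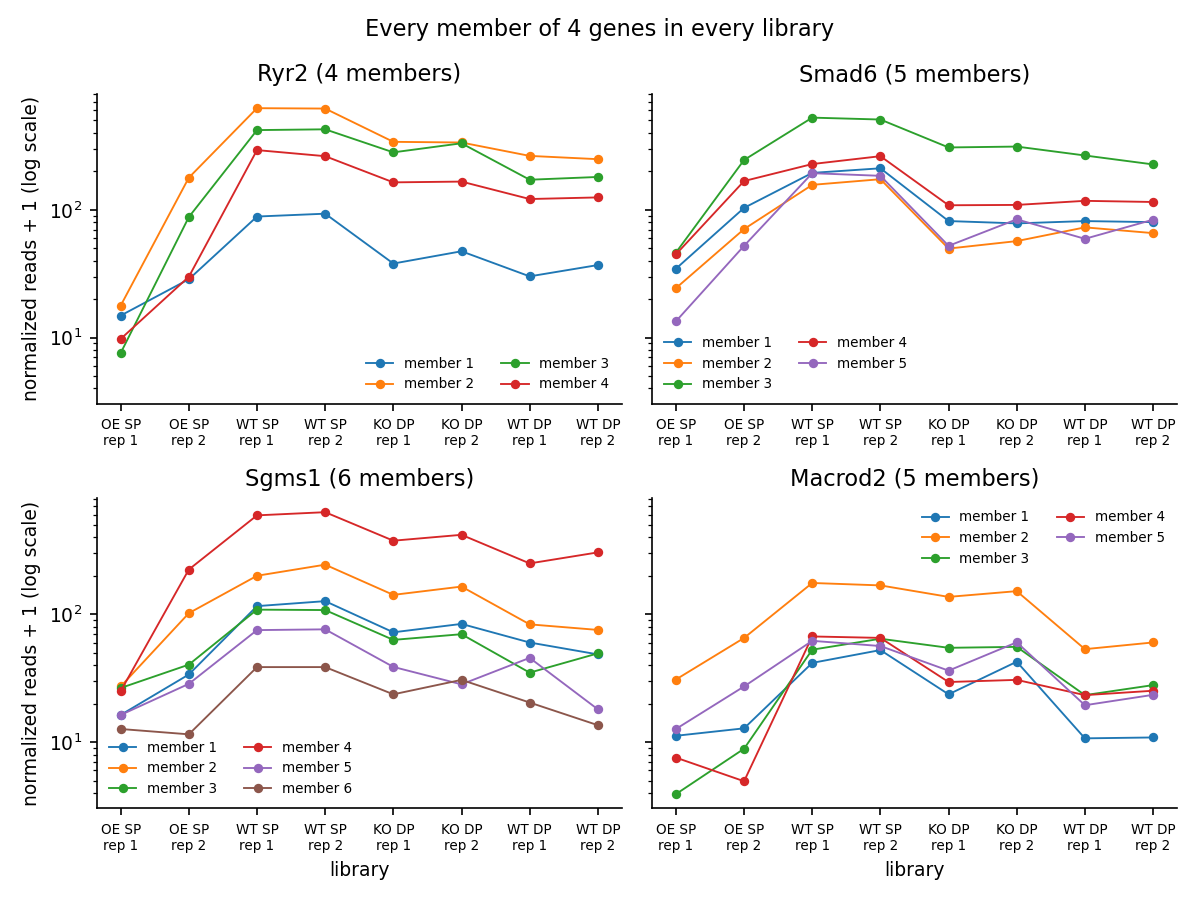
Normalized reads plus 1 (log axis) in each of the 8 libraries for every member of Ryr2 (4), Smad6 (5), Sgms1 (6) and Macrod2 (5), numbered by position. Each line is 1 member. All have their highest value in a WT SP library, and OE SP replicate 1 is the lowest library in most of them.

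Gene lists of cell types and pathways show where the members fell among the regions higher in WT SP. Of 59 regions near endothelial genes that met the first criterion, 3 (5.08%) were members, and of 42 near Etv2 targets and ETS partners 1 (2.38%), against 28.2% of all such regions. Near blood genes it was 5 of 43 (11.6%). Near genes of extraembryonic and lateral mesoderm it was 12 of 23 (52.2%), near BMP, WNT and Notch genes 10 of 24 (41.7%), and near cardiac genes 7 of 20 (35.0%). Of all regions near the same genes, however, the members were 3.23%, 1.38% and 1.4% in these 3 lists, against 1.28% of all regions, so the signalling and the cardiac list were near the background by that measure. The endothelial share was 0.524%, that of Etv2 targets and ETS partners 0.27% and that of blood genes 1.27%. The remaining lists had 4 of 12 (pluripotency, 33.3%), 2 of 6 (paraxial and streak mesoderm, 33.3%), 1 of 5 (housekeeping), 6 of 31 (endoderm, 19.4%), 4 of 21 (smooth muscle and mesenchyme, 19.0%) and 1 of 6 (neuroectoderm, 16.7%). The second criterion decides these shares, so they describe small numbers without a test. The lists also share genes, so their shares are not independent. Fli1, Erg, Ets1, Elk3, Notch1, Robo4, Rhoj and Sox7 are in both the endothelial list and that of Etv2 targets and ETS partners. Bmp4, Bmp5, Bmp7, Id1, Id2, Id3 and Wnt2 are in both the extraembryonic and the signalling list, and the Id3 member counts in both. Single genes and the OE SP libraries carried much of this order. Without Ahnak, a large scaffold protein with 5 members, the extraembryonic and lateral mesoderm list had 7 of 16 (43.8%). Without Smad6 the BMP, WNT and Notch list had 5 of 18 (27.8%), near the share of all regions, and without Ryr2 the cardiac list had 3 of 14 (21.4%). With OE SP replicate 1 left out of the rule, the shares were 9 of 23 (39.1%), 7 of 24 (29.2%) and 5 of 20 for these 3 lists, 3 of 59 (5.08%) for endothelial genes and 2 of 43 (4.65%) for blood genes, against 20.9% overall. With replicate 2 left out they were 60.9%, 54.2%, 45.0%, 6.78% and 25.6%, against 36.8% overall. The endothelial share stayed below the overall share in each of these settings.

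**Figure D5:**
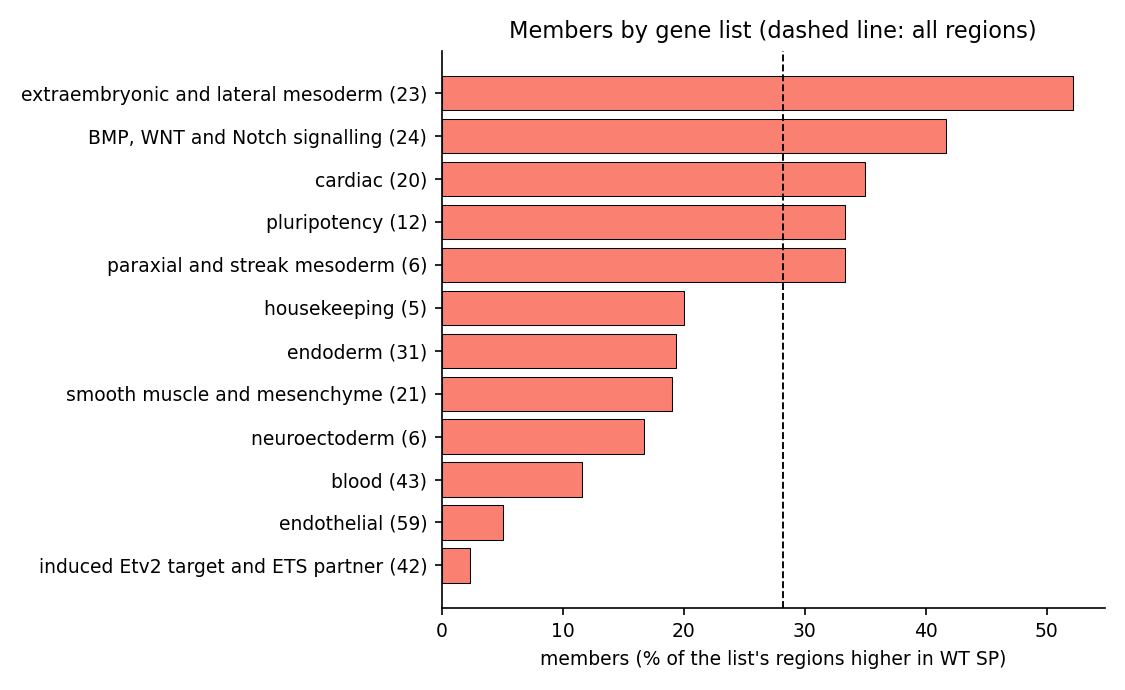
Members as a percentage of each list's regions with L of at least 1 for WT SP over WT DP, with the number of those regions in brackets. The dashed line is the share over all regions, 28.2%. Lists share genes, so the bars are not independent. Endothelial genes (5.08%) and Etv2 targets with ETS partners (2.38%) lie far left of it, and extraembryonic and lateral mesoderm genes (52.2%) far right.

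The few endothelial members were in Eng, the TGF-beta co-receptor endoglin, near Nrp1, a VEGF co-receptor, and near Ets2, an ETS factor. In Eng, at chr2:32653772-32654172, the values were 70.0 and 125 normalized reads in OE SP against 364 and 379 in WT SP, and 185 and 184 in KO DP against 190.3 and 163 in WT DP. Both OE SP libraries lay below both WT DP libraries. The Nrp1 member, 95.8 kb away, had 6.57 and 9.20 in OE SP against 68.2 and 60.5 in WT SP, and 26.0 and 36.8 in KO DP against 18.4 and 25.1 in WT DP. Among blood genes, a member in Runx1, the Runt factor of blood stem cell formation, had 16.8 and 21.0 in OE SP against 63.1 and 76.3 in WT SP, and 20.2 and 20.2 in KO DP against 16.5 and 30.5 in WT DP. In Cbfa2t3, a corepressor bound by Tal1 complexes, a member had 30.6 and 155 in OE SP against 311 and 303 in WT SP, and 288 and 289 in KO DP against 120.4 and 117 in WT DP. KO DP stood near WT SP at this Cbfa2t3 member, which was not called in KO DP (limma adjusted p = 0.165), and near WT DP in Runx1. The other Cbfa2t3 member, at chr8:122685460-122685860, had KO DP near WT DP. It measured 42.0 and 53.5 in KO DP against 52.4 and 67.4 in WT DP, with 163 and 151 in WT SP.

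Ahnak, the scaffold protein, had 5 members inside the gene, and the strongest had 7.29 and 15.8 in OE SP against 53.9 and 65.4 in WT SP, and 31.9 and 33.3 in KO DP against 15.5 and 15.3 in WT DP. All 5 had OE SP replicate 1 as their lowest library. Near Pmp22, a membrane protein of peripheral myelin, the values were 8.75 and 19.7 in OE SP against 98.7 and 80.3 in WT SP, and 42.0 and 28.5 in KO DP against 25.2 and 21.6 in WT DP.

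In the other mesoderm lists, a member in Tbx4, a T-box factor of hindlimb and allantois, had 10.2 and 56.5 in OE SP against 138 and 148 in WT SP, and 48.7 and 65.4 in KO DP against 45.6 and 47.6 in WT DP. Foxf1, a forkhead factor of extraembryonic and splanchnic mesoderm, had 2 members 91.4 and 99.1 kb away, both under 40 normalized reads in every library. Near Col1a1, a fibrillar collagen, a member had 10.2 and 48.6 in OE SP against 164 and 158 in WT SP, and 81.4 and 71.3 in KO DP against 58.2 and 62.9 in WT DP. Dll1, a Notch ligand of presomitic mesoderm, had a member 41.1 kb away with 10.2 and 10.5 in OE SP against 59.0 and 63.4 in WT SP, and 32.7 and 28.5 in KO DP against 22.3 and 25.1 in WT DP. Near Col1a1 and Dll1 both OE SP libraries lay below both WT DP libraries. Axin2, a feedback inhibitor and target of WNT signals, had one with 7.29 and 9.20 in OE SP against 57.0 and 61.5 in WT SP, and 26.0 and 24.96 in KO DP against 26.2 and 25.1 in WT DP. Near Tcf7, a WNT effector, the values were 5.11 and 27.6 in OE SP against 46.8 and 56.5 in WT SP, and 31.9 and 40.4 in KO DP against 11.6 and 14.4 in WT DP. At Axin2 both OE SP libraries lay below WT DP, and at Tcf7 they fell on either side of it.

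Pluripotency and endoderm genes held a few. Lin28a, an RNA-binding regulator of let-7, had a member with 147 and 249.6 in OE SP against 609.7 and 619.6 in WT SP, and 424 and 454 in KO DP against 251 and 274 in WT DP. In Tet1, which oxidizes methylated cytosine, a member had 107 and 218 in OE SP against 396 and 407 in WT SP, and 207 and 171 in KO DP against 126 and 137 in WT DP. Lamb1, a laminin chain of basement membranes, had one with 2.92 and 42.0 in OE SP against 78.4 and 95.2 in WT SP, and 19.3 and 26.1 in KO DP against 25.2 and 24.3 in WT DP. The OE SP libraries fell on either side of WT DP at Tet1 and Lamb1. The single member among Etv2 targets and ETS partners, in the ETS repressor gene Etv6, had 19.7 and 40.7 in OE SP against 67.2 and 72.4 in WT SP, and 26.9 and 33.3 in KO DP against 29.1 and 22.5 in WT DP. Near Six3, a homeobox factor of forebrain and eye, the values were 10.9 and 17.1 in OE SP against 74.3 and 81.3 in WT SP, and 36.1 and 33.3 in KO DP against 29.1 and 32.3 in WT DP.

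The most open members in WT SP were led by a region in Smim1, which carries the Vel blood group antigen in humans, at chr4:154023900-154024300. It measured 247 and 917 normalized reads in OE SP against 1414 and 1406 in WT SP, and 849.7 and 881 in KO DP against 628 and 591 in WT DP, so that the OE SP libraries lay on either side of WT DP. In Pak4, a kinase of cell adhesion, the values were 124 and 402 in OE SP against 827 and 846 in WT SP, and 509 and 492 in KO DP against 348 and 344 in WT DP. In Hspg2, the basement membrane proteoglycan perlecan, they were 249 and 363 in OE SP against 684 and 732 in WT SP, and 509.7 and 491 in KO DP against 342 and 341 in WT DP. In Pak4 and Hspg2 OE SP replicate 2 lay above both WT DP libraries and replicate 1 below them. Near Ddr1, a collagen receptor, they were 190.4 and 284 in OE SP against 765 and 782 in WT SP, and 535 and 493 in KO DP against 354 and 367 in WT DP. Utp6 and Kdm4a completed the 6 most open, with 34.3 and 423 in OE SP near Utp6 and 46.7 and 271 in Kdm4a. In all 6, KO DP lay between WT SP and WT DP.

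Among the deepest losses in OE SP, beside the Ryr2 region above, were members in Zfp383, Col27a1 and Stxbp3. In Zfp383, a zinc finger gene, the values were 8.02 and 18.4 in OE SP against 211 and 196 in WT SP, and 50.4 and 58.2 in KO DP against 66.0 and 73.7 in WT DP. In Col27a1, a cartilage collagen, they were 16.8 and 6.57 in OE SP against 178 and 168 in WT SP, and 66.3 and 60.6 in KO DP against 38.8 and 38.6 in WT DP. In Stxbp3, a vesicle docking protein, they were 2.92 and 1.31 in OE SP against 70.2 and 70.4 in WT SP, and 36.1 and 39.2 in KO DP against 18.4 and 18.9 in WT DP. In Col27a1 and Stxbp3 OE SP replicate 2 was the lower library, unlike in most members.

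Chromosome X held 67 members (3.09%), against 1.94% of all regions and 2.83% of those meeting the first criterion. Of the 20 members with the largest L for WT SP over WT DP, 6 were on X. Beside the regions of Gm5127 and Reps2, one 67.3 kb from Zfx, an X-linked zinc finger factor, had 11.7 and 56.5 normalized reads in OE SP against 129 and 164 in WT SP, and 57.9 and 48.7 in KO DP against 33.98 and 26.0 in WT DP. The X members' median log2 difference of KO DP to WT DP was 0.76, against 0.45 for autosomal members. Over all regions of X it was -0.03, against -0.07 for all autosomal regions. The KO DP difference of the X members was thus not shared by X as a whole, and as WT DP took part in the choice it is a description.

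The 37 promoter windows touched by a member were compared with all 14763 windows touched by a region, counting a window once if it held the letters on either strand. The GATA hexamer AGATAA was in 11 (29.7%), against 7.02%. The TEAD hexamer GGAATG was in 15 (40.5%), against 12.5%. A MEIS hexamer, TGACAG, was in 14 (37.8%), against 17.5%, and the RUNX letters TGTGGTT in 6 (16.2%), against 3.83%. The high-affinity ETS hexamer CCGGAA was in 3 (8.11%), against 24.6%, while its core GGAA was in 36 (97.3%), against 95.3%. Base composition moved with this: GC content had a median of 50.3% in the members' windows, against 60.3%. Among the 4627 windows within the 10th to 90th percentile of the members' GC, the shares were 13.3% for AGATAA, 16.6% for GGAATG, 22.3% for TGACAG, 5.55% for TGTGGTT and 20.4% for CCGGAA.

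Beside them, the 75 windows touched by a region highest in OE SP had AGATAA in 30.7%, GGAATG in 14.7%, TGACAG in 33.3%, TGTGGTT in 10.7% and CCGGAA in 5.33%, so of these 5 the TEAD letters parted the most between the 2 kinds of window. That difference rests on 15 of 37 and 11 of 75 windows and was not tested. With OE SP replicate 1 left out of the rule, 23 windows had GGAATG in 8 (34.8%) and AGATAA in 7 (30.4%), and with replicate 2 left out 48 windows had them in 16 (33.3%) and 15 (31.2%). In the sequences shown, Radil carries 3 TEAD hexamers, Sycn 2 of each kind, and Il9r and Mylk3 2 GATA hexamers each. The motifs named were picked from 23 searched after their shares were seen, GGAATG and CCGGAA both hold GGAA, and some windows share a member. For these shares no minimum overlap was set, and letters were counted over the whole window. At Mab21l4 the overlap was 12 bases, so a match may lie outside the member. A match is not evidence of binding, and the distal members, which are most of them, were not searched.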

How the data were processed

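ATAC-seq was deposited as 1 table of 168842 regions with a value in each of 8 libraries. The authors' values are a normalized read signal. The submitters' processing notes name the tools DiffBind 3.14.1, Bowtie2 and MACS2, and mm10 as the build. Scaling, duplicates, the Tn5 shift, and the libraries on which peaks were called are not described in the sources used here. All values were whole multiples of a library step at a tolerance of 0.01 reads, so reads were recovered.

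From these values, group means gave the members, and limma 3.58.1 (R 4.3.3) on log2(value + 5) was fitted to 167573 regions averaging at least 10 (2164 of the 2166 members), with 4 group means and two-sided Benjamini-Hochberg adjustment over all regions. Changes of low regions are understated by the added 5. Genes came from RefSeq GRCm38.p6, the assembly that mm10 names, as the nearest protein-coding span. edgeR 4.0.16 and DESeq2 1.42.0 on recovered reads were alternatives. The script recovered 197 of 200 simulated 3-fold changes. These were placed only in regions of higher level, with the same small scatter in every group. They check the script and do not measure its sensitivity for the members.

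Members and lists were chosen with earlier results of these data known. Named members are the extremes of level and of each difference, up to 3 per list, the strongest of the 8 genes with most members, and the 5 lowest adjusted p per direction in KO DP. Other members of the same genes, the members around Bmp2 and the promoters were chosen after their values were seen.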

Additional observations from a re-analysis of the deposited data

How the results depend on the processing

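For the named members called in KO DP against WT DP, 27 of 156 alternative values no longer passed the threshold and none changed sign. The signs of the other named changes were fixed by the choice of members and say nothing of stability. The number of members depended on scaling and settings. It was 1347 with median-of-ratios factors, 975 with scaling on the 10000 highest regions, 3159 with a pseudocount of 1 (68.6% of them members), 746 with a pseudocount of 20, 210 with thresholds of 1.5 and -1.5, and 1605 to 2826 with 1 library left out, and 983 regions met the rule in each replicate alone. All of the 1347, 975, 746 and 210 were among the 2166, which says nothing of stability. The larger pseudocount and the stricter thresholds can only remove members. Both rescalings made both differences smaller: the members' limma medians for WT SP over WT DP were 1.11 and 1.0, against 1.21 as deposited. Members called higher in WT SP than in WT DP were 1108 with DESeq2, 1876 with quantile normalization, 1970 with edgeR, 2164 with only the compared groups fitted, and 324 to 424 with 1 library left out, and those called lower in OE SP than in WT SP were 1895 to 2161 with 1 left out. For OE SP against WT DP, 347 members were lower and 2 higher with only the compared groups fitted, 321 were lower with DESeq2, and 14, 27 and 15 were higher with median-of-ratios factors, quantile normalization and edgeR. With 1 library left out, 336 to 1403 were lower and 3 to 281 higher. For KO DP against WT DP, members called higher were 234 with median-of-ratios factors (2.57% of all regions), 310 on the 10000 highest regions (3.12%), 317 with quantile normalization (3.46%), 92 with a pseudocount of 1 (1.14%), 930 with only the compared groups fitted (8.89%), 358 with edgeR (3.62%), 7 to 20 with 1 library left out, and 13 and 20 against the WT DP library that took no part in the choice. Those called lower were 53 with only the compared groups fitted, 8 with DESeq2, 1 with any library left out, and 2 and 2 against the other WT DP library. The cause was not tested where a scaling or tool moved a count; leaving out a library or fitting 2 groups alone changes the number of samples and the estimate of spread. The comparison with the other WT DP library, the reading of each replicate's choice in the other replicate, the leaving out of OE SP libraries for lists and motifs, and that of single genes, were chosen after seeing the data.

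Replicate numbers did not pair the libraries: replicate 1 minus replicate 2 correlated between groups by -0.004 to 0.056 across regions. With the replicate block, 1854 members were called higher in WT SP than in WT DP, 2164 lower in OE SP than in WT SP, 641 lower and 6 higher in OE SP than in WT DP, and 161 higher and 13 lower in KO DP. Depth limits single regions: the median region held 27.0 to 42.0 reads.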
